A study of Mus musculus with 12 samples.

Results

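The genes described here, 10 in number, belong to the translation machinery, and their mRNAs are classed as terminal oligopyrimidine (TOP) mRNAs: the elongation factor genes Eef1a1, Eef1b2, Eef1d, Eef1g and Eef2, the nascent-chain factor genes Naca and Btf3, and Pabpc1, Rack1 and Tpt1. They were chosen by name and matched by symbol to the Ensembl identifiers of the count files, and 10 of 10 were found among 49585 genes. CD4 T cells of female mice, isolated from lymph nodes with a naive CD4 T cell kit, were activated for 20 h on plates coated with anti-CD3 (5 ug/ml) and anti-CD28 (1 ug/ml). Before lysis the cells received 0.1 mg/ml cycloheximide for 1 min. Control cells were Rnmt fl/fl CD4cre - and Rnmt cKO cells were Rnmt fl/fl CD4cre +, so that both genotypes carried the floxed Rnmt alleles. Each genotype gave 3 libraries of total cytoplasmic RNA and 3 of ribosome-protected fragments (RPF). The ages of the mice are not given in the sources used here. CD4-Cre removes exon 3 of Rnmt from the double-positive thymocyte stage on, so that CD8 as well as CD4 lineage cells lose it, and before the cells were activated. Only the Rnmt cKO cells carried Cre, and Cre and the loss of Rnmt cannot be told apart.

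RNMT methylates the guanosine cap of mRNA. TOP mRNAs begin with a cytidine followed by an unbroken stretch of pyrimidines, and they encode ribosomal proteins, elongation factors and a few partners of translation. The cap-binding protein LARP1 holds the cap and the pyrimidine stretch of these mRNAs, which protects them and holds back their translation when mTOR signalling is low. T cell activation is a known setting in which this class is released for translation. In elongation, eEF1A brings aminoacyl-tRNA to the ribosome, eEF1B recharges eEF1A with GTP, and eEF2 moves the ribosome along the mRNA.

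The starts of the annotated transcripts were read because the pyrimidine stretch defines the class. Of the 10 genes, 4 (40.0%) have a GENCODE vM21 coding transcript whose first base is a C followed by at least 4 pyrimidines, beside 5.12% of 21703 protein-coding genes and 29.1% of 79 ribosomal protein genes. This count of annotated starts was added after the data were seen, and annotated starts are not mapped starts of transcription in these cells. The starts of 3 of these transcripts follow, 5′ to 3′ in the sense of the mRNA with the opening C and its pyrimidines in capitals. They lie on GRCm38 at chr15:75909277-75909306 (minus strand), chr15:36608944-36608973 (minus strand) and chr11:48800360-48800389 (plus strand), and all are 5′ UTR or transcript start sequence.
Eef1d-217: CTCTCCTTTgcagtcctgagctcgcagttc
Pabpc1-201: CCCCTTCTCCCCggcggttagtgctgagag
Rack1-201: CTTTTTCTCCacagggtcgtggtggcagcc

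For Eef1a1, whose transcripts in the annotation do not begin in this way, the longest run of a C and following pyrimidines within the first 100 bases is shown in capitals, with up to 5 bases before it. It begins at base 54 of Eef1a1-201 (chr9:78481647-78481676, minus strand) and is 7 bases long. A run of at least 7 bases in this stretch, in any coding transcript, is present in 86.1% of ribosomal protein genes and in 56.6% of protein-coding genes. It is present in 10 of the 10 genes, which follows from the cut-off, as 7 bases is also their shortest value (Eef1a1 and Eef2). The median longest run was 11.5 bases in the 10 genes, 10 in ribosomal protein genes and 7 in protein-coding genes.
Eef1a1-201: acgttCTTTTTCgcaacgggtttgccgtca

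The RefSeq promoter table (GRCm38.p6, 250 bases before to 50 after each start) held 7 of the 10 genes. A C followed by at least 4 pyrimidines, on the gene's strand and beginning within 10 bases of the annotated start, was present for 3 of these 7 (Eef1a1, Naca and Rack1). Counted per promoter, this was 3 of 8 (37.5%), beside 30.7% of the 32851 promoters of the table. In the window from 10 bases before to 20 after the start (chr11:48800350-48800379, plus strand), the run of Rack1 opens 6 bases before the annotated start.
Rack1 promoter: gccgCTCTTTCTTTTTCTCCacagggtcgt

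Reads on genes numbered 15079703 to 22629563 per total RNA library and 4123271 to 10661356 per RPF library. All 10 genes passed the filter on low counts, with between 1055 and 79340 reads per library in total RNA and from 162 up to 32147 in the RPF libraries. Values are in CPM, the reads of a gene relative to all reads on genes of its library, with TMM scaling within each kind of library, and changes are relative to the RNA sequenced, so that less RNA per cell and fewer cells of a type cannot be told apart from them. Fold changes are given as log2 of Rnmt cKO over control, with standard errors and adjusted p-values from the quasi-likelihood test of edgeR, Benjamini-Hochberg adjusted over all genes tested. Translation efficiency (TE) is the RPF signal relative to total RNA. Its change was tested in 1 model of all 12 libraries (the term for genotype and kind of library together), so that TE shares its libraries with the other comparisons. As each kind of library was scaled on its own, a TE change is relative to that of other genes. An increase of TE is therefore no absolute increase of translation, and the study states that absolute differences cannot be inferred from these libraries.

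Only uniquely mapped reads were counted, and several of these genes have near-identical processed copies. Every 30-base window of the coding sequence of Tpt1 also occurs in an annotated transcript (GENCODE vM21) of another gene. The share of such windows was 95.2% in Eef1g, 94.6% in Naca, 88.5% in Eef1a1 and 85.1% in Btf3. It was 50.8% in Pabpc1, 42.8% in Eef1d, 28.5% in Eef2, 24.6% in Eef1b2 and 5.1% in Rack1. Reads with several mapping sites, which were not counted, made up 30.1%, 29.3% and 28.7% of control and 25.1%, 24.3% and 27.3% of Rnmt cKO total RNA reads. They were fewer in every Rnmt cKO library of total RNA, whereas in RPF the genotypes overlapped (22.9% to 25.4% in control, 23.5% to 31.0% in Rnmt cKO). Reads outside genes made up 5.34%, 5.63% and 5.997% of control and 8.21%, 8.14% and 7.24% of Rnmt cKO total RNA reads. The part of these differences in the values of the 10 genes was not tested.

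The deleted gene was low in every Rnmt cKO library. In total RNA, Rnmt was at 95.5, 94.1 and 94.3 CPM in control and 29.3, 32.4 and 30.4 CPM in Rnmt cKO libraries. In RPF it was at 104, 87.9 and 98.9 CPM in control and 10.5, 10.4 and 9.60 CPM in Rnmt cKO libraries. The sum of 4 B cell markers (Cd79a, Cd79b, Ms4a1 and Pax5, the most abundant being Ms4a1) was 7.06, 4.55 and 24.6 CPM in control and 64.0, 83.3 and 14.7 CPM in Rnmt cKO total RNA, and 8.73, 7.69 and 27.7 against 90.3, 105 and 14.8 CPM in RPF. Rnmt cKO libraries 1 and 2 thus held the most B cell marker RNA, while Rnmt cKO library 3 lay within the range of the controls. In total RNA 2 of the 3 tested markers were increased (Cd79b and Ms4a1) and in RPF 2 of 4 by edgeR, while DESeq2 called 1 and 0, and none was at 0 in all libraries. With Rnmt cKO 1 and 2 left out, the median log2 fold change of the 10 genes was -0.68 in total RNA (-0.68 with all libraries), -0.33 in RPF (-0.16) and 0.49 in TE (0.57), and the TE calls went from 7 to 2. The part of B cell RNA in these values was not tested. The 8 CD4 T cell markers summed to between 3398 and 3677 CPM in control and between 2547 and 2914 CPM in Rnmt cKO total RNA, and 5 of them were lower in total RNA and 5 in RPF. The 2 CD8 T cell markers summed to between 9.85 and 41.7 CPM in total RNA, and none of the 5 myeloid, 3 NK and 5 erythroid markers passed the filter on low counts. The NK markers summed to 0.265, 0.212 and 0.216 CPM in control and 1.83, 1.39 and 1.08 CPM in Rnmt cKO total RNA, and in RPF to at most 0.613 CPM in control and at least 1.48 CPM in Rnmt cKO. These sums were low but higher in every Rnmt cKO library, and their part in the results was not tested.

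In total RNA, 8 of the 10 genes were decreased in Rnmt cKO cells and 0 were increased, beside 28.0% of 11519 genes decreased and 26.3% increased. Neither an unadjusted p under 0.05 nor DESeq2 called any of the 10 increased. The largest decreases were in the subunits of eEF1 (Eef1g, Eef1a1, Eef1b2 and Eef1d), followed by Eef2 and Rack1, while Btf3 and Naca were decreased by less and Pabpc1 and Tpt1 did not pass the test. The median log2 fold change of the 10 genes was -0.68, against -0.0037 over all genes tested. The ranges were apart, with Rnmt cKO the lower, in 8 of the 10 genes, a pattern seen in 32.3% of all genes.

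In RPF, 1 of the 10 (Eef2) was decreased and 1 (Tpt1) was increased, beside 15.7% of 11428 genes decreased and 14.1% increased. At an unadjusted p under 0.05, 4 were decreased and 2 increased, and DESeq2 called 3 decreased (Eef1a1 and Eef1d in addition) and 1 increased. The median log2 fold change of the 10 was -0.16 (-0.10 without Rnmt cKO 3, -0.21 without control 2), against 0.0080 over all genes. Without overlap of the genotypes, 4 were lower and 2 higher in Rnmt cKO, where 24.3% and 22.2% of all genes were so. TE was increased in 7 of the 10 genes and decreased in 0, beside 3.24% of 10668 genes increased and 6.57% decreased. Neither an unadjusted p under 0.05 nor DESeq2 called any TE decreased, and the TE estimate was above 0 for all 10, with a median log2 fold change of 0.57 against 0.035 over all genes. The ratio of RPF to total RNA was higher in every Rnmt cKO pair of libraries than in every control pair for 9 of the 10 genes, where 16.6% of all genes were higher and 14.9% lower in this way. The margin was narrow for Eef2 and Pabpc1, whose TE changes did not pass the edgeR test.

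The TE count of 7 was 4 without control 2 or without Rnmt cKO 1. With Rnmt cKO 1 and 2 both left out, an alternative added after the data were seen, 8 genes were decreased in total RNA (Pabpc1 gained at -0.65, Naca lost at -0.12), 2 in RPF (Eef2 and Eef1g, Tpt1 no longer being called) and TE was increased in 2 (Eef1a1 and Pabpc1). The median change of TE was then 0.49 on the log2 scale.

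**Figure D1:**
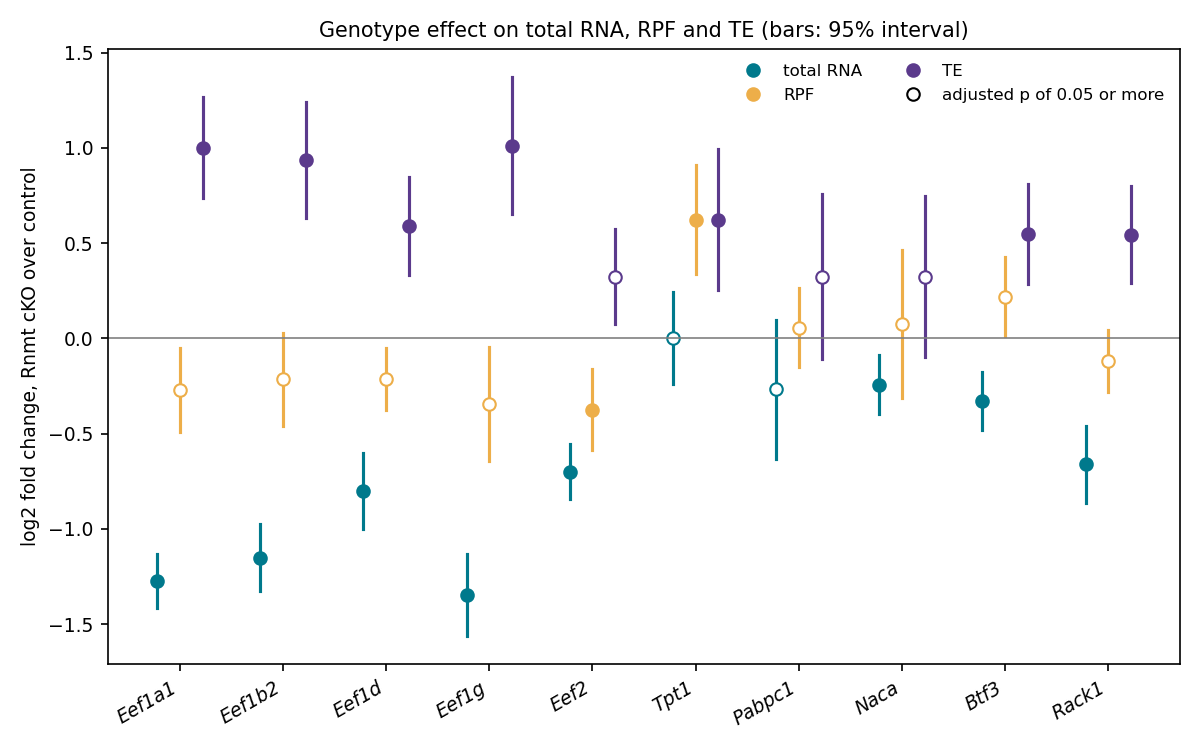
Log2 fold changes (Rnmt cKO over control) of the 10 genes in total RNA, RPF and TE, with 95% intervals from the edgeR fit; filled points have an adjusted p under 0.05. Total RNA values run from -1.35 to 0.0038, RPF values from -0.37 to 0.62, and all 10 TE values lie above 0.

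Eef1a1 encodes eEF1A1, the GTPase that delivers aminoacyl-tRNA, and lies at chr9:78478449-78489151 (minus strand). Its total RNA was 2853, 2808 and 2592 CPM in control and 1168, 1137 and 1109 CPM in Rnmt cKO libraries. The 3 Rnmt cKO values lie close together and far below the controls. The log2 fold change was -1.27 ± 0.06 (SE, adjusted p = 8.97e-06), or a decrease of 58.6%. In RPF, Eef1a1 was at 589, 499 and 579 CPM in control and 476, 497 and 406 CPM in Rnmt cKO. The groups did not overlap, although control 2 and Rnmt cKO 2 were nearly equal, and the log2 fold change of -0.27 ± 0.10 did not pass the test (adjusted p = 0.0647, 95% interval -0.49 to -0.05). The ratio of RPF to total RNA went from 0.203 ± 0.023 to 0.404 ± 0.036 (SD, n = 3), and the change of TE was 1.00 ± 0.12 (SE) on the log2 scale, with an adjusted p of 0.000208 by edgeR. It passed the test in 14 of 14 alternatives.

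Eef1b2, Eef1d and Eef1g encode the beta, delta and gamma subunits of eEF1B, of which beta and delta exchange GDP for GTP on eEF1A and gamma holds the complex together. Eef1g (chr19:8967041-8978479, plus strand) had the largest decrease of the 10 in total RNA, from 203, 205 and 176 CPM to 85.9, 72.7 and 70.9 CPM. All Rnmt cKO libraries were far below the lowest control value. Its log2 fold change was -1.35 ± 0.09 (SE, adjusted p = 2.71e-05). In RPF it went from 68.7, 64.7 and 57.2 CPM to 52.1, 56.8 and 39.9 CPM, where the highest Rnmt cKO value lay just under the lowest control value and the change of -0.34 ± 0.13 did not pass the test (adjusted p = 0.0817) and was -0.22 without Rnmt cKO 3. The RPF change passed the test without a filter on low counts and in the replicate block across genotypes. It was -0.68 with Rnmt cKO 1 and 2 left out. TE of Eef1g was increased by 1.01 ± 0.17 (SE, adjusted p = 0.00184) on the log2 scale.

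Eef1b2 (chr1:63176825-63180486, plus strand) was at 1606, 1692 and 1469 CPM in control and 746, 669 and 732 CPM in Rnmt cKO total RNA. The groups were far apart, with a log2 fold change of -1.15 ± 0.08 (SE, adjusted p = 2.23e-05). In RPF it was at 906, 743 and 882 CPM in control and 779, 771 and 629 CPM in Rnmt cKO. The ranges overlapped, since control 2 lay below Rnmt cKO 1 and 2, and the change of -0.22 ± 0.11 did not pass the test (adjusted p = 0.165). It was -0.12 without Rnmt cKO 3. TE was increased by 0.94 ± 0.14 (SE, adjusted p = 0.000941), and the ratio of RPF to total RNA rose from 0.535 ± 0.085 to 1.02 ± 0.15 (SD, n = 3).

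Eef1d (chr15:75894205-75909556, minus strand) went in total RNA from 356, 376 and 304 CPM to 201, 187 and 207 CPM. The log2 fold change was -0.80 ± 0.09 (SE, adjusted p = 0.000195), and the groups were far apart. In RPF it went from 462, 416 and 449.9 CPM to 397, 396 and 353 CPM, without overlap, and the change of -0.21 ± 0.07 narrowly missed the test (adjusted p = 0.0564). It passed the RPF test in 5 of 15 alternatives. TE was increased by 0.59 ± 0.12 (SE, adjusted p = 0.00693), a call that was lost without control 2 or without Rnmt cKO 1.

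Eef2 (chr10:81176631-81182498, plus strand) encodes the translocase eEF2, and it was the one of the 10 genes decreased in both kinds of library. Its total RNA was 3824, 3739.8 and 3491 CPM in control and 2391, 2241 and 2173 CPM in Rnmt cKO libraries. The log2 fold change was -0.70 ± 0.06 (SE, adjusted p = 7.71e-05). In RPF it was at 3019, 3077 and 3326 CPM in control and 2295, 2729 and 2243 CPM in Rnmt cKO. All Rnmt cKO libraries were below all controls, with a log2 fold change of -0.37 ± 0.09 (SE, adjusted p = 0.0178). This call was lost without control 3 or without Rnmt cKO 1, where the highest adjusted p was 0.069. The TE change of 0.33 ± 0.12 did not pass the test (adjusted p = 0.100, 95% interval 0.07 to 0.58), although DESeq2 called it increased, and it was 0.22 without Rnmt cKO 2.

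Rack1 (chr11:48800332-48806434, plus strand) encodes a scaffold protein of the small ribosomal subunit. Its total RNA fell from 4209.6, 4181 and 3715 CPM to 2512, 2307 and 2838 CPM, a log2 fold change of -0.66 ± 0.09 (SE, adjusted p = 0.000511). In RPF it was at 2361, 2203 and 2362 CPM in control and 2091, 2251 and 2047 CPM in Rnmt cKO. The groups were separate in total RNA and overlapped in RPF, where the change of -0.12 ± 0.07 did not pass the test (adjusted p = 0.251, 95% interval -0.28 to 0.05). TE was increased by 0.55 ± 0.12 (SE, adjusted p = 0.0105). The TE call was lost without control 1, without control 2 or without Rnmt cKO 1.

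**Figure D2:**
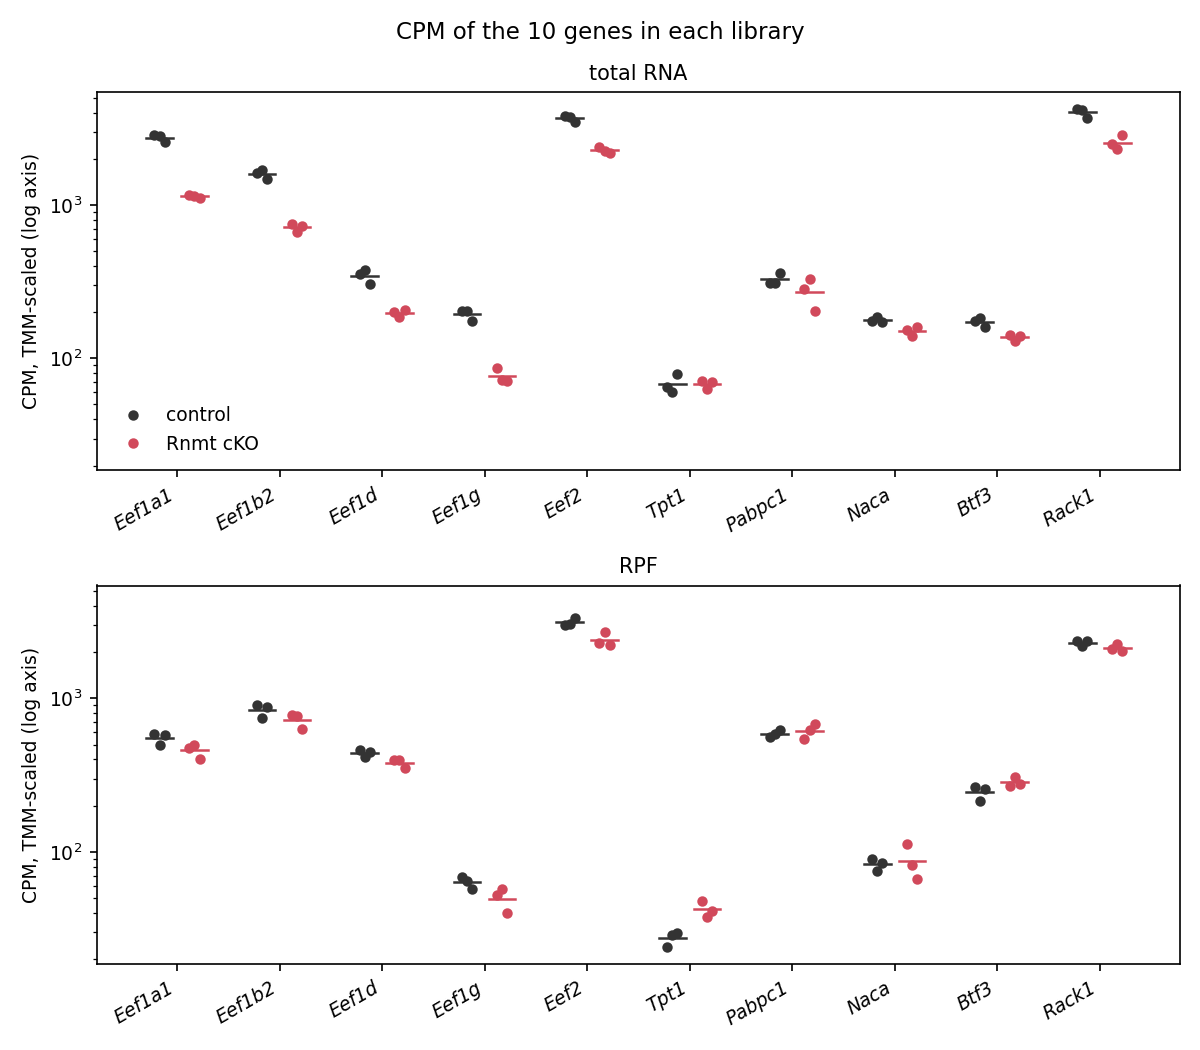
CPM (TMM-scaled, log axis) of each gene in each of the 12 libraries, total RNA above and RPF below; points are libraries and bars are means of 3. The genotypes separate widely in total RNA for Eef1a1, Eef1b2, Eef1d, Eef1g, Eef2 and Rack1, and lie closer together in RPF.

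Naca and Btf3 encode the alpha and beta subunits of the nascent polypeptide-associated complex, which binds chains as they leave the ribosome. In total RNA, Btf3 (chr13:98309896-98317006, minus strand) went from 174, 183 and 161 CPM to 142, 130.0 and 139.7 CPM, with a log2 fold change of -0.33 ± 0.07 (SE, adjusted p = 0.00357). In RPF the order was the opposite, at 263, 215 and 255 CPM in control and 269.5, 309 and 275 CPM in Rnmt cKO. The Rnmt cKO libraries were above all controls by a small margin, and the change of 0.22 ± 0.09 did not pass the test (adjusted p = 0.103) and was 0.13 without control 2. TE of Btf3 was increased by 0.55 ± 0.12 (SE, adjusted p = 0.0117). The TE call was lost without control 2 or without Rnmt cKO 2, and with reads of both strands counted. Btf3 overlaps a gene of the other strand, as do Eef1b2 and Rack1, whose TE calls were not lost in that setting. The part of this overlap was not tested.

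Naca (chr10:128035575-128048637, plus strand) was at 175, 187 and 173 CPM in control and 152, 139 and 160.4 CPM in Rnmt cKO total RNA. The groups did not overlap, and the log2 fold change was -0.24 ± 0.07 (SE, adjusted p = 0.0159). This call was lost without control 2, without Rnmt cKO 1 or without Rnmt cKO 2, with adjusted p-values up to 0.0620 by edgeR. The replicate block across genotypes also lost it, and the value was -0.12 with Rnmt cKO 1 and 2 left out. In RPF, Naca was at 90.3, 75.2 and 84.1 CPM in control and 113, 82.6 and 66.4 CPM in Rnmt cKO. The 3 Rnmt cKO libraries enclosed the control range, and neither the RPF change (0.08 ± 0.17, adjusted p = 0.761) nor the TE change (0.32 ± 0.20, adjusted p = 0.337, 95% interval -0.10 to 0.75) passed the test. The TE value was 0.10 without Rnmt cKO 1 and 0.51 without Rnmt cKO 3, and the RPF value was -0.15 and 0.23. These values were -0.20 in TE and -0.33 in RPF with Rnmt cKO 1 and 2 left out. The Rnmt cKO pairs spread more widely in Naca than the control pairs, with ratios of RPF to total RNA of 0.739, 0.594 and 0.414 against 0.516, 0.402 and 0.486.

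Pabpc1 (chr15:36595661-36609668, minus strand) encodes the main cytoplasmic poly(A)-binding protein. Its total RNA was 312, 311 and 358 CPM in control and 284, 327 and 204 CPM in Rnmt cKO, so that Rnmt cKO 3 stood apart as the low library. The change of -0.27 ± 0.16 did not pass the test (adjusted p = 0.183, 95% interval -0.63 to 0.10). It moved with single libraries, being -0.09 without Rnmt cKO 3 and -0.41 without Rnmt cKO 2, where it passed the test, as it also did without a filter on low counts and, at -0.65, with Rnmt cKO 1 and 2 left out. In RPF, Pabpc1 was at 562, 583 and 626 CPM in control and 543, 618 and 681 CPM in Rnmt cKO. The groups overlapped, with a log2 fold change of 0.06 ± 0.09 (adjusted p = 0.667). The ratio of RPF to total RNA was 1.80, 1.88 and 1.75 in control and 1.91, 1.89 and 3.34 in Rnmt cKO pairs, and the TE change of 0.32 ± 0.20 did not pass the test (adjusted p = 0.349). Without Rnmt cKO 3, the TE change of Pabpc1 was 0.07, and over the 14 alternatives it ran from 0.07 to 0.87.

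Tpt1 (chr14:75845093-75848525, plus strand) encodes the translationally controlled tumour protein, a long-known TOP mRNA. It was the one of the 10 whose total RNA did not lean downwards, at 65.5, 60.4 and 79.1 CPM in control and 71.6, 63.6 and 70.4 CPM in Rnmt cKO. The Rnmt cKO range lay inside the control range (log2 fold change 0.0038 ± 0.10, adjusted p = 0.980, 95% interval -0.24 to 0.25). In RPF it was at 24.0, 28.6 and 29.5 CPM in control and 47.6, 37.7 and 41.1 CPM in Rnmt cKO. All Rnmt cKO libraries were above all controls, and RPF was increased by 0.62 ± 0.12 (SE, adjusted p = 0.00718), while TE was increased by 0.62 ± 0.17 (SE, adjusted p = 0.0366). The TE call was lost without any 1 of control 1, control 3, Rnmt cKO 1, Rnmt cKO 2 or Rnmt cKO 3. The RPF call was lost with Rnmt cKO 1 and 2 both left out, which leaves 1 Rnmt cKO library. Over the 15 alternatives, this one included, the RPF value lay between 0.52 and 0.71. Every 30-base window of its coding sequence occurs in other genes, and only uniquely mapped reads were counted. Whether its 167 to 407 counted RPF reads per library are footprints of the coding sequence was not tested. The values of Tpt1, its RPF and TE calls included, are therefore uncertain.

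**Figure D3:**
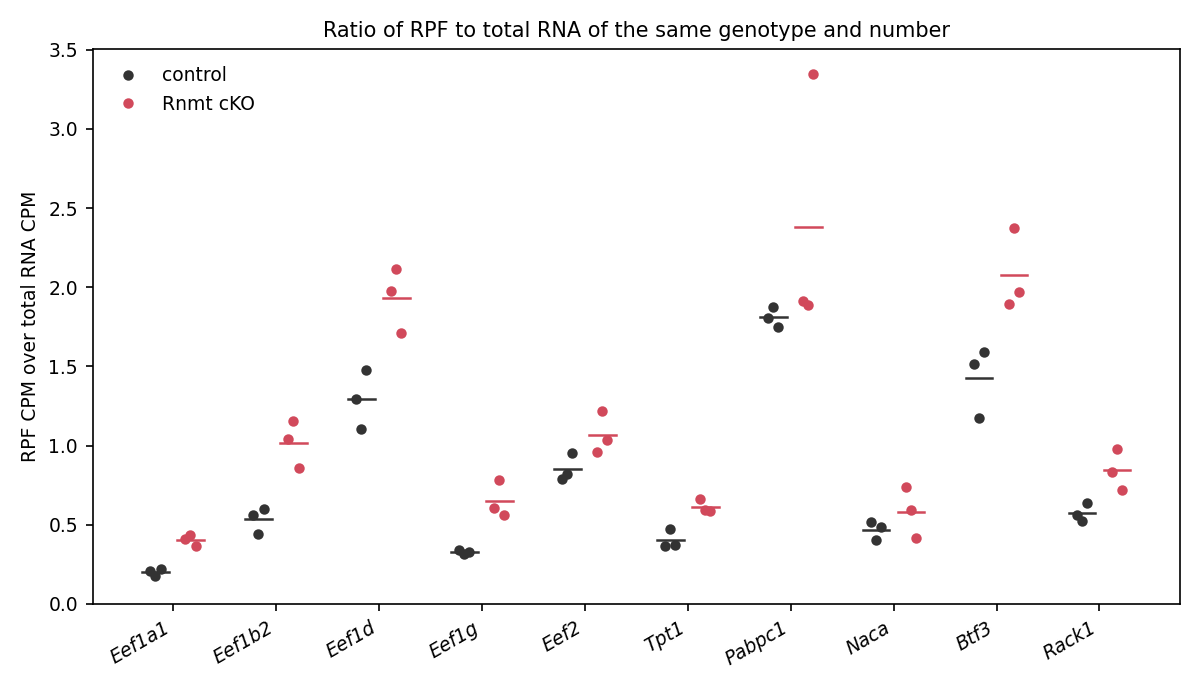
Ratio of RPF CPM to total RNA CPM of the libraries with the same genotype and number, for each gene; points are pairs of libraries and bars are means of 3. The Rnmt cKO pairs lie above all control pairs in each gene other than Naca, and 1 Pabpc1 pair stands at 3.34. The gap between lowest Rnmt cKO and highest control pair is narrow in Eef2 (0.960 and 0.953) and Pabpc1 (1.89 and 1.88).

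Levels between genes were compared per kilobase of the main annotated transcript, with exon length for total RNA and coding length for RPF. As uniquely mapped reads are divided by the full length, genes with many shared windows can be undercounted, and the order below is that of counted reads, not of the mRNAs themselves. In control total RNA, Rack1, with few shared windows, had the highest value of the 10 at 2789 ± 192 CPM per kb (SD, n = 3), followed by Eef1a1 at 1533 ± 77.7, Eef2 at 1193 ± 56.0 and Eef1b2 at 819.6 ± 57.9. Rack1 ranked 4, Eef1a1 10 and Eef2 16 among 9985 protein-coding genes. Below these came Naca (201 ± 8.60), Btf3 (158 ± 10.2), Eef1d (149 ± 16.1), Pabpc1 (116 ± 9.69), Eef1g (104 ± 8.65) and Tpt1 (58.4 ± 8.31 CPM per kb). Btf3 and Eef1d did not differ beyond their spread, nor did Pabpc1 and Eef1g. In Rnmt cKO total RNA, Eef1a1 dropped to 634 ± 16.4 CPM per kb and rank 21, below Eef2 at 734 ± 36.2 and rank 17.

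In control RPF, Rack1 again had the highest value of uniquely mapped reads, at 2428 ± 96.5 CPM per kb of coding sequence. Eef1b2 (1250.2 ± 131) and Eef2 (1220.2 ± 63.3) did not differ beyond their spread, and neither did Eef1a1 (401 ± 35.5) and Btf3 (399 ± 42.6). The ratio of RPF per kb to total RNA per kb was 0.262 ± 0.030 for Eef1a1 in control cells, and only 0.531% of the 9985 genes lay below it. The median ratio of the 9985 genes was 2.36, and that of the 10 genes was 0.972. In Rnmt cKO cells the median over the 10 genes was 1.34 against 2.40 over all genes, and 2.16% of genes lay below Eef1a1 (0.522 ± 0.046). The highest control ratio of the 10 was that of Eef1d, at 3.55 ± 0.51, with a main transcript of 2312 exon and 843 coding bases. These ratios set between genes depend on which parts of each mRNA could be counted and on the annotated lengths used. The part of uncounted reads in the changes between genotypes was not tested.

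Together the 10 genes took 1.91%, 1.90% and 1.73% of the protein-coding reads in control total RNA and 1.06%, 0.978% and 1.06% in Rnmt cKO. In RPF they took 0.895%, 0.855% and 0.931% in control and 0.777%, 0.841% and 0.750% in Rnmt cKO. The genotypes were separate in both kinds of library, with a wide gap in total RNA and a narrow one in RPF. The 79 ribosomal protein genes took 4.13%, 4.13% and 3.74% in control and 2.27%, 2.05% and 2.34% in Rnmt cKO total RNA. In RPF they took 1.77% ± 0.054 in control and 1.77% ± 0.071 in Rnmt cKO (SD, n = 3).

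**Figure D4:**
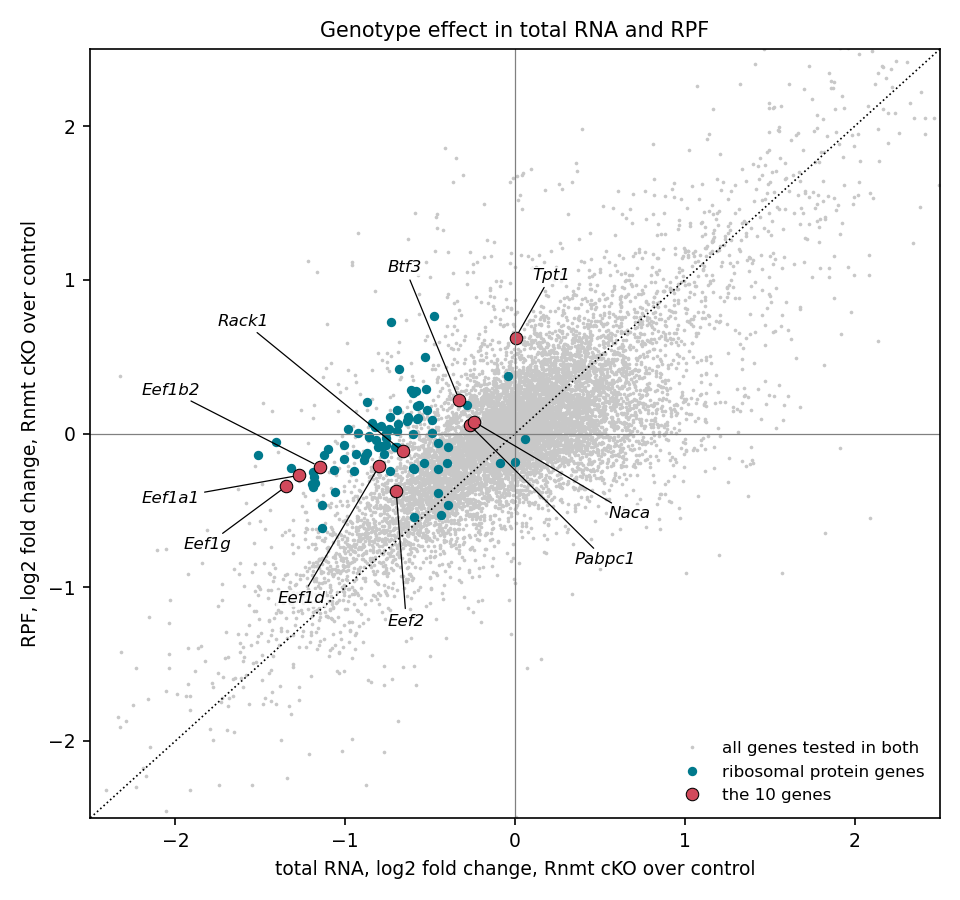
RPF against total RNA log2 fold change (Rnmt cKO over control) for 10668 genes (grey; 124 lie outside the axes), ribosomal protein genes (teal) and the 10 genes (red); the dotted line marks equal change. All 10 genes lie above the dotted line, with Eef1g (-1.35) and Eef1a1 (-1.27) farthest to the left of the 10.

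Other genes of the same processes were taken from lists by name. Among 10 other TOP mRNAs, 5 were decreased and 0 increased in total RNA (median log2 fold change -0.25), which DESeq2 and an unadjusted p under 0.05 also gave as 0 increased. In RPF, 1 was decreased and 2 were increased (median -0.01), and TE was increased in 2 (median 0.18). Eif4b, whose product stimulates the helicase of initiation, had the largest total RNA decrease of this list, from 1065 ± 28.4 to 549.6 ± 21.7 CPM (SD, n = 3; log2 fold change -0.95 ± 0.06, adjusted p = 1.77e-05), at 410 ± 38.8 and 423 ± 26.1 CPM in RPF. Its TE was increased by 1.00 ± 0.11 (SE, adjusted p = 9.69e-05). Npm1, a nucleolar chaperone, was decreased in both total RNA (-0.38 ± 0.07, adjusted p = 0.00213) and RPF (-0.62 ± 0.06, adjusted p = 0.000305), and its TE change of -0.24 ± 0.09 did not pass the test (adjusted p = 0.125). Of the 79 ribosomal protein genes, 71 were decreased in total RNA (median -0.73), 2 were decreased and 4 increased in RPF (median -0.06), and TE was increased in 45 (median 0.73).

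Of 14 mRNAs outside the classical TOP class, listed as abundant ones such as those of actins and glycolytic enzymes, Actg1 was not abundant in these counts (2.72 ± 0.67 CPM in control total RNA, SD, n = 3). In total RNA 8 of the 14 were decreased and 1 was increased (median -0.40). In RPF, 7 were decreased (median -0.28), and TE was increased in 2 and decreased in 1 (median 0.07). Ldha, a glycolytic enzyme, was decreased by 0.95 ± 0.06 on the log2 scale in total RNA (adjusted p = 1.77e-05) and by 0.88 ± 0.06 in RPF (adjusted p = 8.91e-05). This list thus had medians below 0 in both kinds of library, while the median of the 10 genes was further below 0 in total RNA and closer to 0 in RPF.

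**Figure D5:**
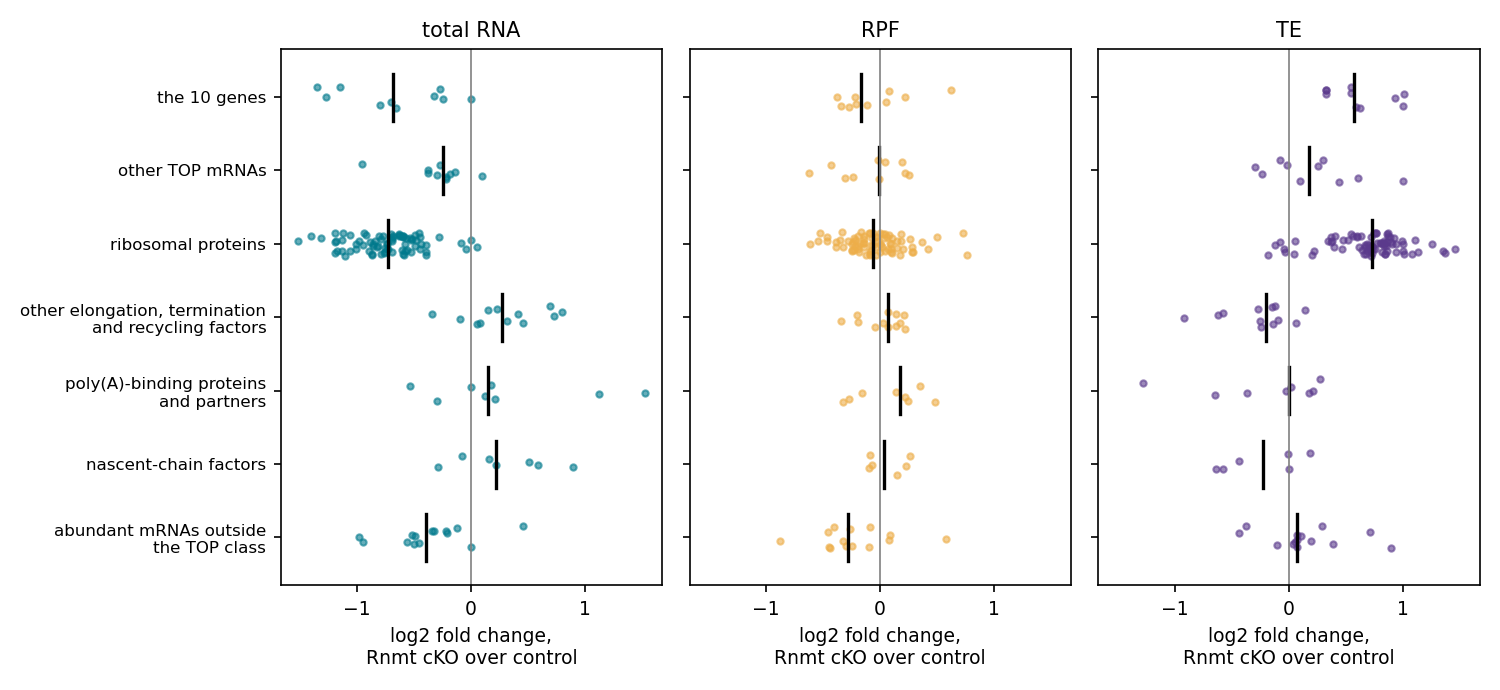
Log2 fold changes (Rnmt cKO over control) of each tested gene of 7 lists in total RNA, RPF and TE; points are genes, spread vertically for visibility, and black bars are medians. The 10 genes and the ribosomal proteins have TE medians of 0.57 and 0.73, and the other lists lie between -0.22 and 0.18.

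Of the other cytosolic elongation, termination and recycling factors, 12 of 13 were tested, and 6 were increased and 1 (Eefsec, the elongation factor of selenocysteine) was decreased in total RNA, with a median log2 fold change of 0.27. None passed the test in RPF by edgeR, where 3 had an unadjusted p under 0.05 and DESeq2 called 1, and TE was decreased in 3 (Eef1e1, Etf1 and Abce1, the last named after its value was seen). Eef1e1, a component of the multisynthetase complex, went from 77.8 ± 2.79 to 135 ± 3.17 CPM in total RNA (SD, n = 3; log2 fold change 0.80 ± 0.05, adjusted p = 2.59e-05), and its TE was decreased by 0.57 ± 0.12 (SE, adjusted p = 0.00723). Etf1, the release factor that reads stop codons, went from 689 ± 16.2 to 1138 ± 51.0 CPM in total RNA and from 676 ± 33.4 to 592 ± 66.6 CPM in RPF, and its TE was decreased by 0.91 ± 0.11 (SE, adjusted p = 0.000245). Vars, the valyl-tRNA synthetase that joins eEF1B, was increased in total RNA (0.45 ± 0.08, adjusted p = 0.00175). Eif5a, which helps ribosomes past proline-rich stretches, was also increased in total RNA (0.41 ± 0.09, adjusted p = 0.00453). Eef2k, the kinase that inactivates eEF2, did not pass the test (0.23 ± 0.11, adjusted p = 0.118), and Eef1a2, the paralog of Eef1a1 known from muscle and nerve, did not pass the filter on low counts.

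Diphthamide is a modified histidine carried by eEF2 alone. Of 7 genes for its synthesis, 2 were increased in total RNA and 1 in RPF (Dph2, 0.61 ± 0.12, adjusted p = 0.00577), with medians of 0.02 and 0.25, and edgeR called no TE change, with 3 at an unadjusted p under 0.05 and 0 by DESeq2. The 7 mitochondrial elongation and release factors split in total RNA, with 2 decreased and 2 increased (median 0.08). In RPF 2 were increased (median 0.15), and TE was increased in 1 of them (Mtrf1l, 0.57 ± 0.15, adjusted p = 0.0255).

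Of the poly(A)-binding proteins and their partners, 8 of 12 passed the filter, and in total RNA 3 were increased and 2 decreased (median 0.15). In RPF 3 were increased, and TE was decreased in 3. Larp1, the cap-binding protein of TOP mRNAs, was at 108, 116 and 127 CPM in control and 248, 314 and 205 CPM in Rnmt cKO total RNA. It was increased by 1.13 ± 0.14 (SE, adjusted p = 0.000423) in total RNA and by 0.48 ± 0.07 (SE, adjusted p = 0.00232) in RPF, and its TE was decreased by 0.65 ± 0.18 (SE, adjusted p = 0.0371). Larp4, which binds poly(A) tails, had the largest increase of this list in total RNA (1.52 ± 0.11, adjusted p = 3.31e-05), and its TE was decreased by 1.28 ± 0.15 (SE, adjusted p = 0.000183). Pabpc4, a paralog of Pabpc1, was decreased in total RNA (-0.30 ± 0.07, adjusted p = 0.00845), as was Paip2 (-0.54 ± 0.08, adjusted p = 0.000990), an inhibitor of PABPC1. Paip1, a partner of PABPC1 that aids translation, was increased in RPF (0.35 ± 0.08, adjusted p = 0.0148) and had a total RNA value of 0.17 ± 0.07 (adjusted p = 0.0595).

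Of 8 nascent-chain factors outside the 10 genes, 7 were tested in total RNA, where 2 were increased and 1 was decreased (median 0.22). In RPF 1 of 6 was increased, and TE was decreased in 1 (Dnajc2, a ribosome-bound chaperone, -0.57 ± 0.08, adjusted p = 0.000497). The paralog of Btf3, Btf3l4, had a log2 fold change of 0.22 ± 0.11 in total RNA (adjusted p = 0.115) and 0.23 ± 0.17 in RPF (adjusted p = 0.331), and Nacad, a paralog of Naca, did not pass the filter.

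The 5 genes outside the 10 and the ribosomal proteins whose profile was most like the mean profile of the 10 were Eif4b (Pearson's r = 0.984), Aimp1 (0.975), Npm3 (0.969), Qars (0.966) and Snd1 (0.966), among 4655 genes over the 12 libraries. The profiles were log2 CPM centred within each kind of library, all points share the libraries and their genotypes, and r is a description. Aimp1 and Qars encode parts of the multisynthetase complex. Qars was decreased by 0.88 ± 0.07 in total RNA (adjusted p = 4.27e-05) and its TE was increased by 0.77 ± 0.11 (SE, adjusted p = 0.000497). Within the 10 genes, r with their own mean profile was above 0.90 for Eef1a1, Eef1b2, Eef1d, Eef1g, Eef2 and Rack1, and was 0.716 for Btf3, 0.577 for Naca, 0.435 for Pabpc1 and -0.112 for Tpt1.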

How the data were processed

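Cytoplasmic total RNA and RPF libraries were made by the authors with the Illumina TruSeq Ribo Profile kit. Per the submitters' processing notes and the methods, read 2 was trimmed with cutadapt, rRNA and tRNA reads were removed with Bowtie, and reads were aligned to mm10 (GRCm38) with STAR 2.5.2b and the GENCODE vM12 annotation. The deposited counts are whole reads per gene for both strands and each strand, uniquely mapped and not normalized. The opposite-strand column was used, since it matched the authors' deposited normalized signal up to 1 factor per library for 100% of genes; that signal table was used for nothing else. Multimapping reads were left out of the counts.

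A gene was tested where 3 or more of 6 total RNA or RPF libraries exceeded 1 CPM (in both kinds for TE), with edgeR 4.0.16 (R 4.3.3; TMM, glmQLFit, glmQLFTest) on the 3 libraries per genotype, with a Benjamini-Hochberg adjusted p under 0.05 as threshold. The study used RiboDiff for TE, which was not used here. Standard errors are the log2 fold change divided by the square root of F. Tests were checked on simulated counts. Nothing in the labels says that libraries came from separate mice, so p-values measure the spread between these libraries, which may be technical. Alternatives were scaling without TMM or over protein-coding genes, DESeq2 1.42.0, the edgeR exact test, other filters, both strands, leaving out replicates and a replicate block. Deviations from the group means of the total RNA and RPF libraries with the same genotype and number correlated in all 6 pairs (r from 0.114 to 0.374 over 10668 genes). These numbers were taken as pairs for the ratios and for leaving out replicates, and across genotypes they were not. The reported TE fit treated all libraries as independent. Among the TE fits, only the replicate block on genotype and number modelled the pairs. Lengths were those of the best-ranked APPRIS transcript of GENCODE vM21, and sequences were read from GENCODE vM21 and RefSeq.

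The genes and lists were chosen with earlier results of these data known. Named were the 10 genes, Rnmt, chosen paralogs and partners, the largest rise or fall past the threshold of a list, and the 5 genes of most similar profile whose mean log2 of CPM plus 0.5 was 5 or more in both kinds of library. Abce1 was named after its value was seen. Some items, a marker gene and sequences among them, are not reported here.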

Additional observations from a re-analysis of the deposited data

Results flagged for a closer look

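The effect of genotype differed between RPF and total RNA, by the edgeR interaction test, in 7 of the 10 genes, all with TE increased. Over all 10668 genes tested, 3.24% were increased and 6.57% decreased in this way. Leaving out 1 replicate gave 4 to 6 of these calls, and that of Tpt1 was lost in each case other than without control 2. The difference of the log2 fold changes (RPF minus total RNA) was 1.00 for Eef1a1, 0.94 for Eef1b2, 0.59 for Eef1d, 1.01 for Eef1g, 0.62 for Tpt1, 0.55 for Btf3 and 0.55 for Rack1. Groups of 3 libraries are too small for a test of single outlying values.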

How the results depend on the processing

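The count of the 10 genes called in RPF, 2 in the reported fit, was 4 with TMM over protein-coding genes only, 4 with DESeq2 and 6 without a filter on low counts, as Eef1a1 and Eef1d (and, without a filter, Eef1b2 and Eef1g) also passed as decreased. Leaving out 1 replicate gave 1 to 4 calls in RPF (4 without control 2, 1 without control 3 or Rnmt cKO 1), 4 to 6 in TE against 7 (4 without control 2 or Rnmt cKO 1) and 7 to 8 in total RNA against 8. With Rnmt cKO 1 and 2 left out, which leaves 1 library whose spread is assumed to be that of the controls, TE gave 2 calls, the RPF median was -0.33, and Naca changed sign in RPF (-0.33) and TE (-0.20). No other setting moved a count by over 1.5 times or turned a median. Values near 0 changed sign elsewhere, namely Tpt1 in total RNA (-0.0061 without a filter, -0.082 to 0.12 with 1 replicate left out), Naca in RPF (-0.15 to 0.23) and Pabpc1 in RPF (-0.020 to 0.14). The replicate block on genotype and number, which pairs total RNA and RPF, gave 7 TE calls and lost or gained none. A replicate block across genotypes, whose numbers did not pair, gave 7 calls in total RNA (Naca lost) and 3 in RPF (Eef1g gained). The deviations of same-numbered libraries correlated between -0.521 and 0.154 across genotypes. The fewest reads on 1 of the 10 genes in a library were 162, in RPF.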
